A study of Caenorhabditis elegans with 12 samples.

Results

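The bath and math genes of the nematode Caenorhabditis elegans are described here across a move of adult animals from a warmer to a cooler temperature. They were taken by name, as the probe sets (groups of oligonucleotides that together read a transcript) to which the platform annotation gives 1 symbol made of bath or math and a number. Where a gene had several, the one brightest on average over the 12 arrays stands for it. That rule uses names and mean signal, not differences between times, but it was set with earlier results of these data known. The rule gave 85 genes, 38 bath and 47 math, from 91 probe sets, among 17118 genes measured in the same way. The WBcel235 gene table lists 92 such genes, and bath-27, bath-28, bath-34, bath-35, bath-37, math-43 and math-45 have no probe set of their own here. No filter on low values was used, so all 85 members were tested.

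MATH domains are folds that bind short stretches of other proteins, and BTB domains let proteins pair with each other and with the cullin CUL-3. The name bath stands for proteins that hold both, and math for proteins named for the MATH domain alone. In the known cases, a MATH-BTB protein is the part of a CUL-3 ubiquitin ligase that picks the substrate. In C. elegans the best studied is MEL-26, which brings the microtubule-severing protein MEI-1 to CUL-3 for destruction after meiosis. The substrates of most bath proteins are not known, and the family is far larger in this nematode than in mammals. Close copies of a gene can be read by the same probe set. An exception by function is math-33, which encodes a deubiquitylase, the counterpart of mammalian USP7, that acts on the transcription factor DAF-16.

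Total RNA came from the whole body of wild-type N2 Bristol adults, the standard laboratory strain, with no allele, transgene or added agent. Synchronized embryos were grown at 23 °C for 2.5 days, and the adults were then moved to 17 °C. Of the 12 Affymetrix arrays, 4 hold RNA taken ahead of the move (called 0 h), 2 hold RNA from 1 h after it, 2 from 2 h and 4 from 4 h. Animals left at 23 °C over that period are not among them, so time and handling cannot be told apart from temperature. Replicates are numbered 1 to 4 in the labels, which do not say that they came from separate cultures, so the p-values measure only the spread between these samples.

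Values are log2 signals that the authors had summarised with RMA, and 1 unit is a doubling. The median signal of an array was 5.5 to 5.57, and its lower quartile 3.53 to 3.64. Of 33 markers of adult tissues and of other stages, 32 were measured and 20 lay above the array medians. Among these were markers of the germ line (gld-1), yolk-making intestine (vit-2), body wall muscle (unc-54), neurons (snb-1) and adult cuticle (col-19). Other markers of the intestine (elt-2), neurons (rab-3), hypodermis (dpy-7), sperm (spe-11) and coelomocytes (unc-122) did not lie above the medians. Neither did the measured markers of the embryo (pha-4, end-1, med-1), male (mab-3) and dauer larva (daf-28, col-40, cut-1). Of the 32, the sperm marker ssp-10 alone passed at 4 h, where it fell. In RNA of whole animals, fewer cells of a type and less RNA per cell cannot be told apart. The numbers 1 to 4 paired the 0 h and 4 h arrays in their deviations, and the 1 h and 2 h arrays are of replicates 1 and 2 only.

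At 4 h, 4 members rose and 1 fell. The genes that rose were bath-26, bath-47, math-4 and math-14, by 1.43-fold to 1.6-fold, and bath-19 fell by 1.3-fold. That is 5 of 85 members (5.88%), where 2.48% of all 17118 genes passed at an adjusted p under 0.05 (limma, Benjamini-Hochberg over all 22548 probe sets). By direction, 4.71% of members rose and 1.18% fell, against 1.44% and 1.04% of all genes. The other 80 members did not pass.

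**Figure D1:**
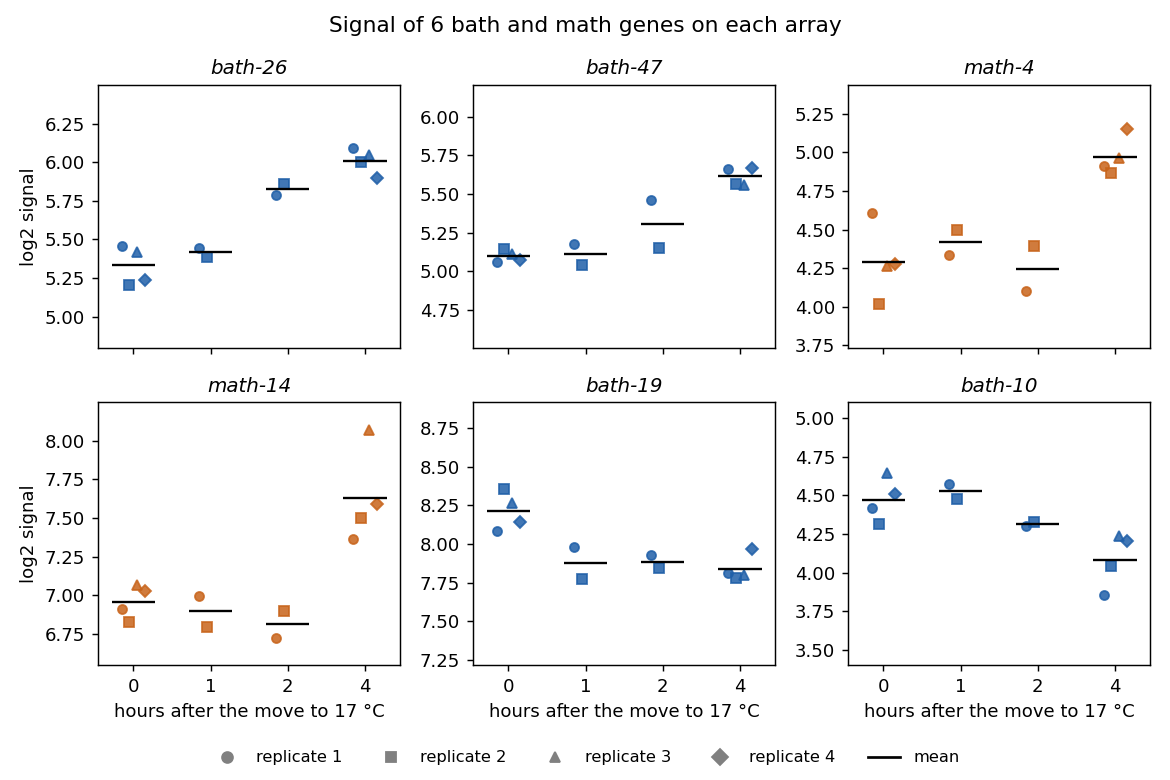
Log2 signal of bath-26, bath-47, math-4, math-14, bath-19 and bath-10 on each of the 12 arrays, against hours after the move to 17 °C, with 1 symbol per replicate number and a bar at the mean of each time; every panel spans the same height. In the first 4 panels each 4 h array lies above each 0 h array, and in the last 2 each lies below.

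bath-26 (T07H3.6) had the smallest p-value of the family. At 0 h its 4 arrays read 5.46, 5.21, 5.42 and 5.24, at 1 h 5.45 and 5.39, at 2 h 5.79 and 5.86, and at 4 h 6.09, 6.0, 6.05 and 5.90. The 1 h arrays lay within the range of the 0 h arrays, while both 2 h arrays and all 4 h arrays lay above it. The change at 4 h was 0.68 (SE 0.0781, 1.6-fold, adjusted p = 0.000525), with 0.63, 0.79, 0.63 and 0.66 in pairs 1 to 4. These values come from the brighter of its 2 probe sets, whose name ends in _s_at, a mark that it can read more than 1 transcript. A second probe set for bath-26, without that mark, gave 5.04, 4.65, 4.94 and 4.59 at 0 h and 5.26, 5.57, 5.57 and 5.5 at 4 h. It again showed no overlap, and a change of 0.67 (adjusted p = 0.00757). The call on the brighter probe set held without any single array.

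bath-47 (T07H3.1) lies next to bath-26 in the gene order of the WBcel235 table. Its arrays read 5.06, 5.14, 5.11 and 5.07 at 0 h, 5.18 and 5.04 at 1 h, 5.46 and 5.15 at 2 h and 5.66, 5.57, 5.56 and 5.67 at 4 h. The 4 h arrays were above all earlier ones, and the 2 h arrays were split, replicate 1 well above the 0 h range and replicate 2 just above it. The change at 4 h was 0.52 (SE 0.0776, 1.43-fold, adjusted p = 0.00317) and ran from 0.42 to 0.60 over the 4 pairs. It was 0.51 within replicates 1 and 2 and 0.52 within replicates 3 and 4, and no single array decided the call (adjusted p up to 0.0136).

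Both genes stand in a row of 4 members with no other coding gene or pseudogene between them, in the order bath-46, bath-26, bath-47 and bath-33, on chromosome II. bath-46 read 5.07, 4.86, 4.83 and 4.69 at 0 h and 5.31, 5.11, 4.92 and 5.53 at 4 h. Its groups overlapped although every pair was higher at 4 h, and its change of 0.36 (95% interval 0.08 to 0.63) did not pass (adjusted p = 0.235). bath-33, at the other end, read 4.28, 3.96, 3.94 and 3.75 and then 4.07, 3.80, 3.92 and 3.81, a change of -0.08 (95% interval -0.36 to 0.20, adjusted p = 0.882). The row therefore held 2 called genes, 1 with a smaller positive value and 1 near 0. Whether the probe sets of these neighbours read each other's transcripts was not tested, since no probe sequences were used.

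math-4 (C08F1.5) read 4.61, 4.02, 4.26 and 4.28 at 0 h, 4.33 and 4.50 at 1 h, 4.10 and 4.39 at 2 h and 4.91, 4.87, 4.96 and 5.15 at 4 h. The 4 h arrays lay above all 8 others, and the 1 h and 2 h arrays lay within the 0 h range, whose spread was wide because of replicates 1 and 2. The change at 4 h was 0.68 (SE 0.117, 1.6-fold, adjusted p = 0.00781), with 0.30, 0.85, 0.70 and 0.87 in the pairs. The call held without any single array (adjusted p up to 0.0274). Its only probe set is of a kind whose name (_s_at) marks that it can read more than 1 transcript. The nearest members before and after it, math-3 and math-2, are set apart from it by other genes and changed by 0.06 and -0.19.

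math-14 (C16C4.4) read 6.91, 6.83, 7.07 and 7.03 at 0 h, 7.0 and 6.80 at 1 h, 6.73 and 6.90 at 2 h and 7.37, 7.5, 8.07 and 7.59 at 4 h. The 4 h arrays were again above all the others, with replicate 3 the highest. The change was 0.67 (SE 0.129, 1.6-fold, adjusted p = 0.0138), 0.56 within replicates 1 and 2 and 0.79 within replicates 3 and 4. Without replicate 2 at 0 h it missed the threshold by little (adjusted p = 0.0506).

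math-14 is the second gene in an unbroken row of 13 math genes on chromosome II, the longest such row. Of the 13, all measured, 7 lay above 0 at 4 h and 6 below, with a median change of 0.01 and a range of -0.22 to 0.67. math-15, the neighbour on one side, read 3.45, 3.44, 3.74 and 3.92 at 0 h and 3.96, 4.33, 4.14 and 3.95 at 4 h. All its 4 h arrays were above the 0 h arrays, and its change of 0.46 (95% interval 0.19 to 0.73) missed the threshold (adjusted p = 0.0835), which it passed without replicate 4 at 0 h (0.046). math-10, the neighbour on the other side, read 3.62, 3.70, 3.87 and 3.90 and 3.98, 4.13, 4.35 and 3.79, with overlap and a change of 0.29 (SE 0.127, 1.23-fold, adjusted p = 0.348). Further along, math-5 lay higher at 4 h without overlap (0.26, adjusted p = 0.128) and math-6 lower without overlap (-0.22, adjusted p = 0.212), both with signals under the arrays' lower quartile, where sizes of change are least certain.

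bath-19 (F59H6.1) was the only called member that fell. It read 8.08, 8.36, 8.27 and 8.14 at 0 h, 7.98 and 7.78 at 1 h, 7.93 and 7.84 at 2 h and 7.81, 7.78, 7.80 and 7.97 at 4 h. Every array after the move lay below every 0 h array, and the 3 later times did not stand apart from each other. At 4 h it fell by 0.37 on the log2 scale (SE 0.0822, 1.3-fold, adjusted p = 0.031). Blocking on replicate number ended the call (adjusted p = 0.0627 over the 12 arrays and 0.0704 over the 8 taken at 0 h or 4 h). It was also lost without replicate 2, 3 or 4 at 0 h or replicate 1, 2 or 3 at 4 h (adjusted p up to 0.101). At 1 h (-0.34, adjusted p = 0.538) and 2 h (-0.33, adjusted p = 0.18) it did not pass. Its neighbour bath-20 read 4.31, 4.26, 4.26 and 4.30 at 0 h and 4.94, 4.94, 4.29 and 4.23 at 4 h. Replicates 1 and 2 were higher at 4 h and replicates 3 and 4 were not, so the mean change of 0.32 (adjusted p = 0.402) describes neither pair of arrays.

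Among members lower at 4 h, bath-10 came closest to the threshold without passing, and bath-9 is its neighbour in the gene order. bath-10 (Y49F6C.4) read 4.42, 4.32, 4.64 and 4.51 at 0 h and 3.86, 4.04, 4.24 and 4.20 at 4 h, without overlap, with 4.58 and 4.47 at 1 h and 4.30 and 4.33 at 2 h in or next to the 0 h range. Its change of -0.39 (SE 0.0955) had an adjusted p of 0.054, and blocking on replicate number brought it under the threshold (0.0192). bath-9 (Y49F6C.3) read 7.22, 6.99, 6.99 and 7.15 at 0 h and 6.73, 6.75, 6.93 and 6.88 at 4 h, also without overlap, a change of -0.26 (SE 0.0803, 1.2-fold, adjusted p = 0.137). bath-23, on the other side of bath-10, gave -0.06 (adjusted p = 0.882). math-25 (-0.35, adjusted p = 0.134) lay below its 0 h arrays at a signal under the lower quartile, and its adjusted p was 0.031 when the block was fitted to the 0 h and 4 h arrays alone.

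**Figure D2:**
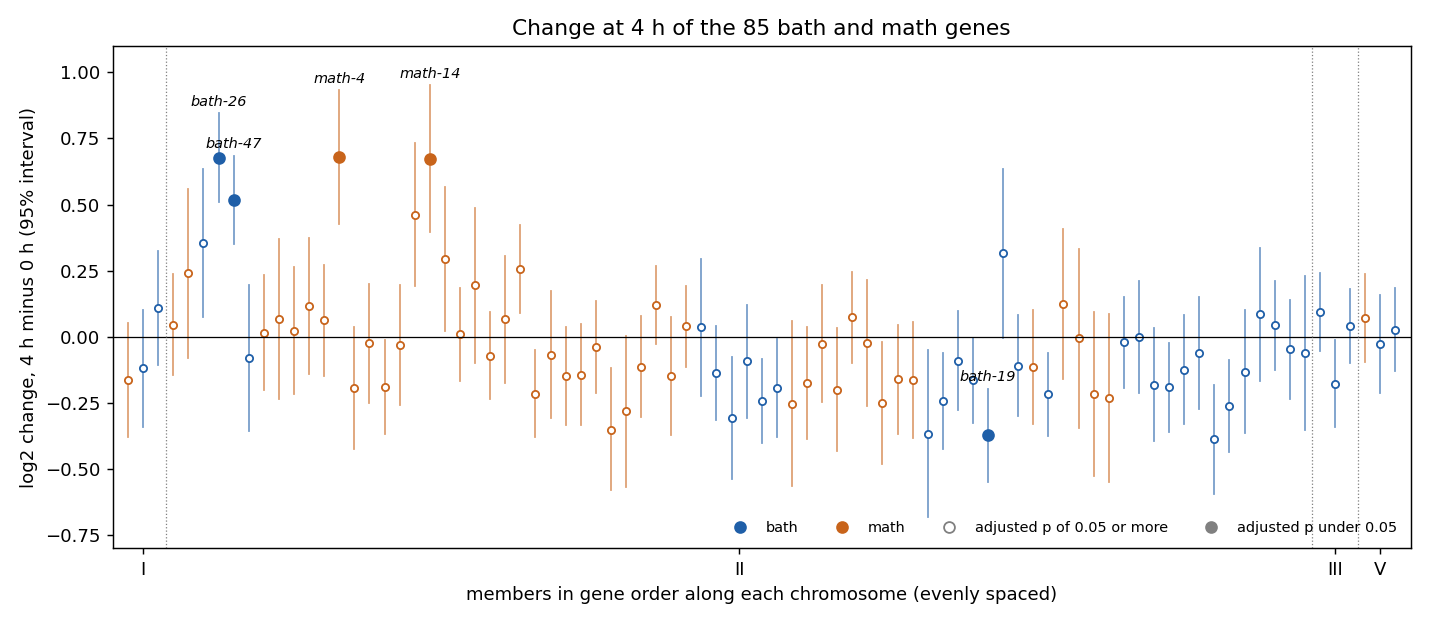
Log2 change at 4 h against 0 h with its 95% interval for the 85 members, in gene order along chromosomes I, II, III and V and evenly spaced; blue is bath, orange is math, and filled points passed an adjusted p of 0.05. The 4 called rises are among the first members along chromosome II, and the members of the other chromosomes lie between -0.18 and 0.11.

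Below these few calls, values below 0 outnumbered those above. At 4 h the median change of the 85 members was -0.06, against -0.01 over all genes, and 54 members (63.5%) lay below 0, against 54.6% of all genes. Among the 38 bath genes the median was -0.09 and 27 lay below 0, and among the 47 math genes it was -0.03 and 27 lay below. In 24 of 85 members (28.2%) 4 h was lower in all 4 same-numbered pairs, where 14.7% of all genes were, and 16 of these 24 were bath genes. In 11 (12.9%) it was higher in all 4, where 12.5% of all genes were. At an unadjusted p under 0.05, 16 members were lower (18.8%, background 6.73%) and 8 higher (9.41%, background 6.22%). All 4 h arrays lay below all 0 h arrays in 10 members (11.8%, background 4.78%) and above them in 8 (9.41%, background 4.58%). Close copies can share signal and all were read on the same arrays, so these counts are not independent observations.

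The 10 members below without overlap were bath-2, bath-9, bath-10, bath-14, bath-19, bath-21, bath-22, bath-30, math-6 and math-25. bath-2 had narrow groups, with 8.80, 8.80, 8.84 and 8.84 at 0 h and 8.62, 8.60, 8.56 and 8.52 at 4 h, a change of -0.24 (95% interval -0.40 to -0.08, adjusted p = 0.134). bath-21 had a larger change with a wider interval, -0.37 (-0.68 to -0.05, adjusted p = 0.293), and bath-14 and bath-30 smaller ones, -0.22 and -0.19 (adjusted p = 0.182 and 0.313). The 8 members above without overlap were the 4 called ones with math-15, math-5, math-22 and bath-41. In the last pair the changes were small, 0.12 and 0.09.

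In the first 2 h only bath-26 passed. At 1 h, 0 of 85 members passed in limma, as did 0% of all genes, while 13 members (15.3%) had an unadjusted p under 0.05, against 6.44% of all genes. Of these 13, 11 were lower (12.9%, background 3.06%) and 2 higher (2.35%, background 3.38%). At 2 h, 1 of 85 passed (1.18%, background 1.06%, of which 0.707% higher and 0.356% lower), and at an unadjusted p under 0.05 there were 16 lower (18.8%, background 6.25%) and 2 higher (2.35%, background 6.53%). The called member was bath-26, at 0.49 (SE 0.0956, adjusted p = 0.0273) on its _s_at probe set. The brighter of its 2 probe sets alone gave this call, the other reading 0.24 (adjusted p = 0.526), and it was lost under quantile normalization (adjusted p = 0.0507) and without replicate 2 or 4 at 0 h or either 2 h array (adjusted p up to 0.353). For the mean of 1 h and 2 h, 0 of 85 members passed in limma, where 0.713% of all genes did (0.485% higher and 0.228% lower) and 20 members (23.5%) had an unadjusted p under 0.05, against 11.8% of all genes.

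**Figure D3:**
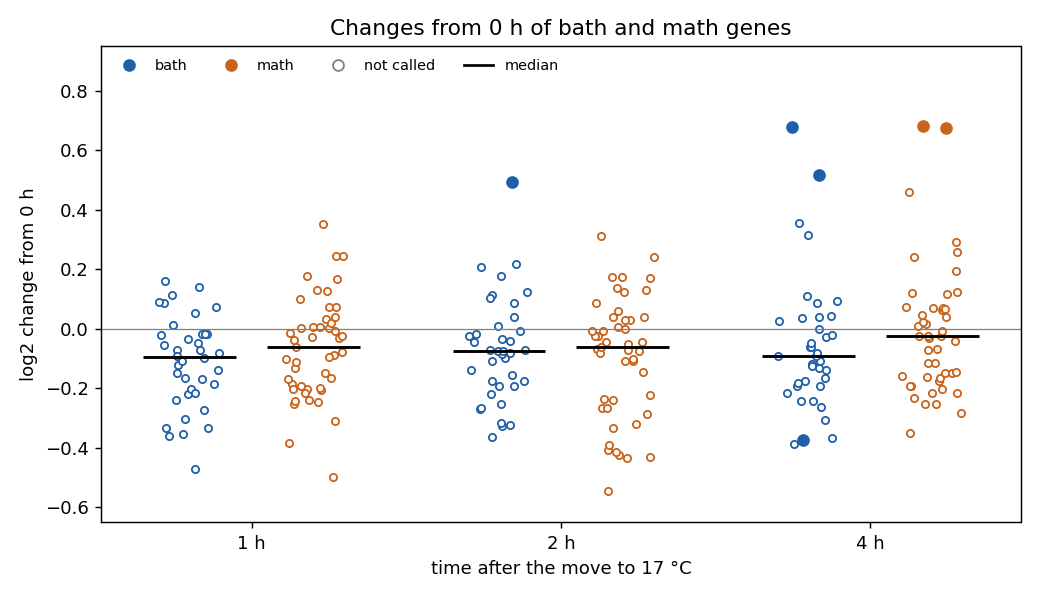
Log2 change from 0 h of the 38 bath genes (blue) and the 47 math genes (orange) at 1 h, 2 h and 4 h, 1 point a gene with sideways jitter, filled where the adjusted p was under 0.05 and with a bar at the median. The medians lie between -0.10 and -0.03, and the filled points are bath-26 at 2 h and 5 genes at 4 h.

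More members lay below 0 at 1 h and 2 h than at 4 h. At 1 h and again at 2 h, 60 of 85 members (70.6%) lay below 0, against 53.1% and 53.4% of all genes, with medians of -0.08 and -0.07 against -0.01 over all genes at each time. Both 1 h arrays lay below all 0 h arrays in 16 members (18.8%, background 8.03%), and both 2 h arrays in 21 (24.7%, background 11.9%). Both lay above them in 3 members at each time (3.53%, background 6.48% at 1 h and 10% at 2 h). The 3 times are compared with the same 0 h arrays, so a high 0 h array lowers all 3 changes at once, and the 1 h and 2 h values rest on 2 arrays each. The genes bath-2, bath-19 and bath-22 lay below the 0 h arrays at every time. In bath-22 (F52C6.1, annotated as a pseudogene) the 0 h arrays read 5.39, 5.22, 5.29 and 5.24, the 1 h arrays 4.82 and 5.14, the 2 h arrays 5.08 and 4.85 and the 4 h arrays 5.13, 5.17, 5.05 and 5.02, with adjusted p = 0.609, 0.205 and 0.364 in turn.

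Of the members not called, math-24 had the lowest changes at 1 h and 2 h. Its locus is C46F9.3, and it read 5.79, 5.59, 5.79 and 5.97 at 0 h, 5.34 and 5.24 at 1 h, 5.22 and 5.26 at 2 h and 5.29, 5.35, 5.97 and 5.41 at 4 h. All arrays after the move but replicate 3 at 4 h lay below the 0 h range. Its changes were -0.50, -0.55 and -0.28 (adjusted p = 0.564, 0.164 and 0.401), and without that 4 h array it passed at 2 h (adjusted p = 0.0323) and at 4 h (-0.44, adjusted p = 0.0369). math-44 (Y16E11A.1) read 3.59 and 3.59 at 2 h, below its other 10 arrays, of which the 0 h ones read 3.90, 4.18, 4.01 and 3.89. That change of -0.41 (SE 0.0981) did not pass (adjusted p = 0.0805), and by 4 h it was back at 4.14, 3.93, 4.11 and 4.09. math-12 (C16C4.2, annotated as a pseudogene) had the largest positive change at 1 h, with 4.35 and 4.14 against 3.71, 3.99, 3.93 and 3.95 at 0 h (0.35, SE 0.0987, adjusted p = 0.47). bath-21 had the lowest early value among the bath genes, -0.47 at 1 h (adjusted p = 0.683), where replicate 2 lay far below replicate 1.

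Between the first 2 h and 4 h, math-14, math-4 and bath-47 rose. The difference between 4 h and the mean of 1 h and 2 h was 0.78 for math-14 (SE 0.129, adjusted p = 0.0235), 0.64 for math-4 (adjusted p = 0.0394) and 0.41 for bath-47 (adjusted p = 0.0477). That is 3 of 85 members (3.53%), all upward, where 0.403% of all genes passed and 0.146% did so upward. For bath-26 the difference was 0.39 and missed the threshold (adjusted p = 0.0565), while its second probe set gave 0.63 and passed (adjusted p = 0.0392). The calls were fragile, since without 1 h replicate 2 or 2 h replicate 2 none of the 3 passed, and without 2 h replicate 1 bath-47 alone did. Blocked on replicate number, math-14 stayed called (0.63, adjusted p = 0.0301), math-4 (0.0796) and bath-47 (0.0576) did not, and bath-26 (0.41, adjusted p = 0.0435) and bath-10 (-0.46, adjusted p = 0.0301) were added. The F test over the 3 changes from 0 h called bath-26, bath-47, math-4 and math-14 (adjusted p = 0.00186, 0.012, 0.02 and 0.0202), 4.71% of members against 1.91% of all genes, and only 2 of them stayed without replicate 4 at 4 h. bath-19, with 0.0946, was not called.

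The family differed in where its signals lay on the arrays. Probe sets differ in how strongly they bind, so a signal places a gene in the range of the arrays and does not rank it against another. Of the 38 bath genes, 24 (63.2%) had a mean above the mean array median and 3 (7.89%) one below the mean lower quartile. Of the 47 math genes, 11 (23.4%) lay above the median and 18 (38.3%) below the lower quartile, and of all genes 48.1% and 26.2%. The WBcel235 table annotates 19 members as pseudogenes, of which 5 lay above the median and 7 below the lower quartile, and 66 as coding, of which 30 and 14 did. None of the 5 called members is annotated as a pseudogene. Among the 21 members below the lower quartile no change passed at 1 h, 2 h or 4 h, where 0%, 1.06% and 2.48% of all genes did. At such shares the lack of a call among 21 members says little about them.

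**Figure D4:**
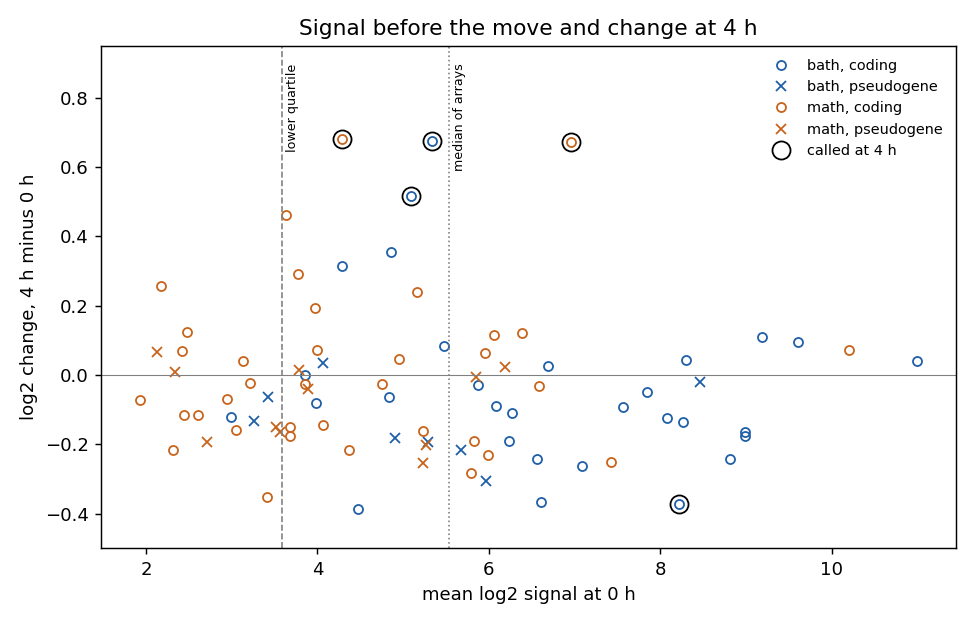
Log2 change at 4 h against mean log2 signal at 0 h for the 85 members; circles are coding genes, crosses annotated pseudogenes, black rings mark the 5 called genes, and the vertical lines give the mean lower quartile (3.59) and median (5.54) of the arrays. The called genes lie right of the lower quartile, math-4 nearest to it.

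Some annotated pseudogenes gave signals above the array median. bath-12 (F59H5.3) read 8.61, 8.45, 8.40 and 8.39 at 0 h and 8.48, 8.53, 8.44 and 8.32 at 4 h, a change of -0.02 (95% interval -0.19 to 0.15). bath-6 (F52C6.9) read 5.79, 5.79, 6.27 and 6.01 at 0 h and 5.52, 5.59, 5.79 and 5.74 at 4 h, lower in all 4 pairs, a change of -0.31 (adjusted p = 0.203). Whether such signal comes from the locus itself or from close copies was not tested. Over the 19 annotated pseudogenes the median change at 4 h was -0.13 with 14 below 0, and over the 66 coding members it was -0.06 with 40 below 0.

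Members outside the chromosome II group changed little. Of the 85 members, 76 lie on chromosome II and 9 elsewhere, 3 each on chromosomes I, III and V, and 7 of the 9 lay above the array median. The deubiquitylase gene math-33 read 10.13, 10.19, 10.27 and 10.21 at 0 h and 10.16, 10.19, 10.35 and 10.39 at 4 h, a change of 0.07 with a 95% interval of -0.10 to 0.24. bath-42 (C50C3.8) read 11.02, 11.08, 10.96 and 10.91 at 0 h and 10.99 to 11.07 at 4 h, a change of 0.04 (-0.10 to 0.18), and it had the smallest spread within times of the family (0.0544). bath-41 gave 0.09 (-0.05 to 0.24) and bath-40 gave 0.11 (-0.11 to 0.32). For bath-15 the interval lay below 0, -0.18 (-0.34 to -0.01), without passing (adjusted p = 0.34). The intervals of all 9 excluded a 1.5-fold change in either direction at 4 h, as did those of 76 of the 85 members (89.4%) and 94.4% of all genes. At 1 h and 2 h the intervals of all 9 excluded it too, but 7 and 8 of the 9 lay below 0, against 53.1% and 53.4% of all genes. The lowest of the 9 at 1 h was bath-39 (-0.33, adjusted p = 0.551 in limma).

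The second long row on chromosome II runs through math-24, math-23, math-22, math-30 and math-31 to bath-11, bath-4, bath-6, bath-7 and bath-2. Of these 10 genes, 7 lay below 0 at 4 h, with a median of -0.13. At that time 0 passed in limma, where 2.48% of all genes did, and bath-2 and bath-6 had unadjusted p of 0.00596 and 0.013. Of the 14 rows of adjacent members, 7 had all measured members below 0 at 4 h and 1 had all above. The 7 include the row of bath-28 and bath-30, of which only bath-30 was measured. They also include that of bath-12, bath-13 and bath-18, where bath-13 lay at -0.001. Rows of other genes were not counted, and 54.6% of all genes lay below 0. Whether adjacent members are regulated together was not tested. In the row of bath-1, bath-3 and bath-5 all 3 lay below 0 (-0.24, -0.09 and -0.17), as they did in that of bath-24, math-1 and bath-14 (-0.11, -0.12 and -0.22). In the row of math-28, math-27, math-26 and math-3 all 4 lay above 0, between 0.02 and 0.12. The last 3 are read by probe sets ending _x_at, a kind that can cross-react, and math-28 lay under the lower quartile. Whether these probe sets share signal was not tested. In all, 57 of the 85 members have another bath or math gene as an immediate neighbour in rows of 2 to 13 genes.

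Probe sets that the annotation gives to a bath or math gene together with another gene stand outside the rule, and 0 of these 5 passed in limma at any time. Over all genes 0%, 1.06% and 2.48% passed at 1 h, 2 h and 4 h, so 5 probe sets are too few to read that count. The one for bath-3 and bath-4 changed by -0.27 at 4 h (adjusted p = 0.105). The one for math-47 and math-48 changed by -0.08, the one that covers bath-27 by -0.11, and the pair for bath-29 and bath-30 by -0.03 and -0.11. In all, 6 members had a second probe set. Apart from bath-26 these were bath-33, bath-42, bath-44, math-34 and math-37, and their second probe sets changed by -0.25 (math-37) to 0.08 (bath-42) at 4 h, none past the threshold.

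Differences between replicates within a time were as large as many of the changes above. The standard deviation around the time means ran from 0.0544 (bath-42) to 0.265 (math-35), with a median of 0.145 over members and 0.137 over all genes. math-18 read 5.65, 5.79, 6.16 and 6.34 at 0 h, where replicates 3 and 4 exceeded replicates 1 and 2 by 0.53 on average, and at 4 h the same difference was 0.15. The largest such difference of the family was at 4 h in bath-20, -0.67. bath-40 showed the same order as bath-20, with -0.30 at 0 h and -0.21 at 4 h. For the 4 genes that rose at 4 h the change was positive within replicates 1 and 2 and within replicates 3 and 4, as 0.71 and 0.64 in bath-26 and 0.57 and 0.79 in math-4 show.

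Among the genes that act with or beside MATH-BTB proteins, cul-6 and skr-21 were called at 4 h. Of 70 measured genes of the ubiquitin ligase pathway outside the family, taken from a fixed list, 1 rose and 1 fell at 4 h (2.86%, background 2.48%), with a median change of -0.02. At 4 h 9 of the 70 had an unadjusted p under 0.05, where 13% of all genes did. The gene of the cullin CUL-3, to which BTB adaptors bind, did not pass. cul-3 went from 10.48 ± 0.0309 to 10.46 ± 0.125 (SD, n = 4 each), a change of -0.03 with a 95% interval of -0.22 to 0.17. The RING protein gene rbx-1, which recruits the ubiquitin-charged enzyme, changed by -0.07 (-0.24 to 0.11). The gene of the MATH-BTB adaptor MEL-26 changed by 0.04 (-0.12 to 0.21), and its substrate gene mei-1 and the partner mei-2, which together make the katanin microtubule-severing enzyme, by -0.03 and 0.00.

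**Figure D5:**
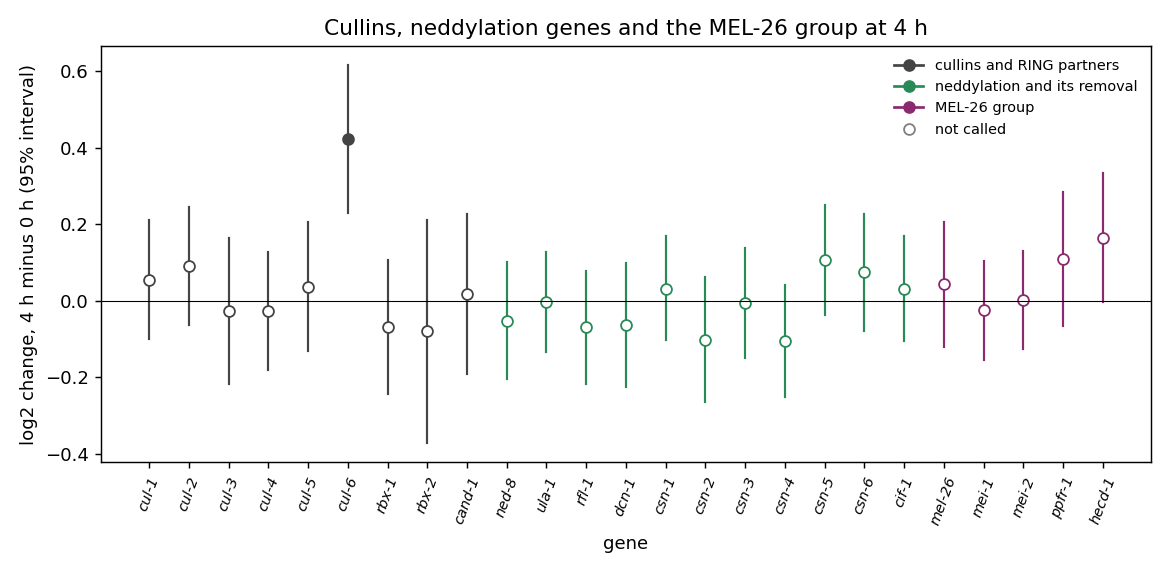
Log2 change at 4 h against 0 h with its 95% interval for 9 cullin and partner genes, 11 genes of neddylation and its removal, and 5 genes around MEL-26; filled points passed an adjusted p of 0.05. The point for cul-6 lies at 0.42 and the other 24 lie between -0.11 and 0.17.

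cul-6, a cullin known from the response to pathogens inside cells, was the one gene of its group of 9 that passed at 4 h. Its mean was 5.60 ± 0.145 at 0 h and 6.02 ± 0.0703 at 4 h (SD, n = 4 each), and the 4 h arrays (5.94 to 6.11) did not overlap those at 0 h (5.40 to 5.73). It rose by 0.70 at 2 h (adjusted p = 0.00775) and by 0.42 at 4 h (adjusted p = 0.0249). Among 19 Skp1-related genes, which link F-box proteins to cullins, skr-21 fell by 0.58 on the log2 scale at 4 h (adjusted p = 0.00983), and 18 did not pass. Of 26 other BTB genes 0 passed in limma at 4 h, where 5 had an unadjusted p under 0.05 (background 13%). Of the 26, btb-3 fell at 2 h by 0.56 on the log2 scale (adjusted p = 0.0374).

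The genes that switch cullins on and off did not pass. NED-8 is the small protein that activates cullins when attached, and ned-8 changed by -0.05 (-0.20 to 0.10). None of the 11 genes of neddylation and its removal passed in limma at 1 h, 2 h or 4 h. At these times 1, 2 and 0 of them had an unadjusted p under 0.05, against 6.44%, 12.8% and 13% of all genes. Their changes at 4 h lay between -0.11 (csn-4, a subunit of the COP9 signalosome that removes NED-8) and 0.11 (csn-5, its catalytic subunit). The F-box genes are the other large group of substrate adaptors in this nematode. Of 310 measured fbxa, fbxb and fbxc genes, 4 rose and 4 fell at 4 h (2.58%, background 2.48%), with a median change of -0.02. That share and the 5.88% of the bath and math genes were not tested against each other.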

How the data were processed

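For each of 12 Affymetrix arrays the authors deposited log2 signals by probe set. Per the submitters' processing notes they come from RMA, whose version is not stated, and base 2 is inferred from that method and the range of 1.51 to 14.4. Scanner files and probe sequences were not used here, and the only genome build used was WBcel235, through its gene table. All 22548 probe sets were fitted together, each time having its own mean (limma 3.58.1 in R 4.3.3, lmFit and eBayes, 8 residual and 5.03 prior degrees of freedom), so times with 2 arrays borrow their spread from the others. Tests were two-sided, with Benjamini-Hochberg adjustment over all probe sets and a threshold of 0.05. Fold changes are powers of 2 of the log2 change. The fit was tested on simulated data in which all arrays varied independently, so a link between same-numbered arrays was not covered.

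Names came from the platform annotation, and all 85 members matched the WBcel235 gene table by identifier. That table gave chromosome, gene order and pseudogene status. No coordinates are printed because the deposited files name no build. Full statistics were given to members called in any comparison and to the 10 with the smallest F-test p, and any member could be named with its values. The members, lists and tests were chosen with earlier results of these data known. Same-numbered 0 h and 4 h arrays deviated together (the 4 correlations were 0.169 to 0.314, and those between different numbers -0.29 to 0.147), which pairs them by these values, not by the labels. Same-numbered 1 h or 2 h and 0 h arrays did not (r = -0.075 to 0.00773). Alternatives were a replicate block, subsets of arrays, each array left out, filters on dim or cross-reacting probe sets, 2 further normalizations, a variance trend, array weights and other choices of probe set.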

Additional observations from a re-analysis of the deposited data

Results flagged for a closer look

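In 3 members the change at 4 h differed from the mean change at 1 h and 2 h by a test of that difference over all probe sets (limma). The difference was 0.78 in math-14 (adjusted p = 0.0235), 0.64 in math-4 (adjusted p = 0.0394) and 0.41 in bath-47 (adjusted p = 0.0477). In all 3 each 4 h array lay above each 1 h and 2 h array. The calls depended on single arrays. Leaving out 1 of the 12 arrays ended the call of math-14 in 3 cases (adjusted p up to 0.0865), that of math-4 in 10 (up to 0.109) and that of bath-47 in 11 (up to 0.14). The early times have 2 arrays each, all of replicates 1 and 2. With only replicates 1 and 2 of every time the differences were 0.58, 0.56 and 0.41 with none past the threshold. 

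The 4 arrays of each member at 0 h and at 4 h were also searched for an array whose gap to its nearest neighbour, divided by the range of the 4, passed Dixon's 95% critical value. Of 170 such groups over the 85 members, 6 held one, where chance flags about 1 group in 20. At 0 h these were replicate 1 of bath-21 (6.39, next 6.67), of bath-3 (6.25, next 6.04) and of math-48 (3.96, next 3.61), replicate 2 of bath-45 (5.13, next 4.75) and replicate 4 of math-26 (5.9, next 6.11). At 4 h it was replicate 3 of math-20 (7.43, next 7.12). None of these 6 members was called at 4 h. Replicate 3 of math-24 at 4 h (5.97, the others 5.29 to 5.41) fell just short of the critical value, and without that array math-24 passed at 2 h and 4 h. In math-14 replicate 3 at 4 h (8.07, the others 7.37 to 7.59) did not reach it.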

How the results depend on the processing

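The called changes did not turn direction under the alternatives run. Nor did the changes of the 10 members with the smallest F-test p, each taken at the time where its own p was smallest. That time was 4 h except in math-12 (1 h) and math-44 (2 h). Of the recomputed values of these changes 251 kept their side of the threshold, 66 lost it and 3 gained it, all 3 of bath-10. All 66 losses were of called changes, while the 251 include values of uncalled members that stayed uncalled, so these counts overstate how stable the calls were. Aside from fits without 1 array, the 2 h call of bath-26 was lost in 7 of 11 alternatives and its 4 h call in 2 of 12. Between replicates 1 and 2 and replicates 3 and 4 the 4 h change had opposite signs in 24 of the 85 members, 0 of them called, among them bath-20 (0.65 and -0.02) and bath-33 (-0.18 and 0.02). The count of 5 members at 4 h was 3 to 5 without single arrays (3 without replicate 2 at 0 h, where math-14 and bath-19 were lost), 0 with only replicates 1 and 2, 1 with only replicates 3 and 4, and 3 without the dimmer 50% of probe sets, which leaves 35 members and neither bath-47 nor math-4. With the replicate block it was 5, of which 4 were the same genes, bath-10 taking the place of bath-19. The count of 1 at 2 h was 0 to 2 without single arrays and 0 with only the arrays compared, with or without the block, with only replicates 1 and 2, without probe sets that can cross-react, under quantile normalization, under median centring and with the mean of a gene's probe sets. The count of 0 for the mean of 1 h and 2 h was 1 with only the arrays compared (math-24) and 0 to 1 without single arrays. The count of 3 between the early times and 4 h was 0 to 2 without single arrays, 1 with only the arrays compared, 0 with the block added and 1 with only replicates 1 and 2 (bath-20, 0.81, adjusted p = 0.026). The F test's count of 4 was 2 to 5 without single arrays (2 without replicate 4 at 4 h) and 0 with only replicates 1 and 2. The pathway count of 2 was 1 to 2 without single arrays, 0 within replicates 1 and 2, 0 within replicates 3 and 4, 4 without dim probe sets and 1 without cross-reacting ones. Smaller subsets hold fewer arrays; other causes were not tested. Leaving out a 1 h or 2 h array leaves 1 array there, which is assumed to vary like the other groups. Signal over background was not assessed, so small changes in the 21 members under the lower quartile are beyond these data.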
